A study of Mus musculus with 10 samples.

Results

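The 8 hydroxysteroid dehydrogenase genes Hsd11b1, Hsd17b2, Hsd17b4, Hsd17b6, Hsd17b10, Hsd17b11, Hsd17b12 and Hsd17b13 were followed in single mouse hepatocytes across the liver lobule and the day. They were chosen by name, with earlier results of these data known. Their entries among the 14812 gene entries of the count tables are the lower-case hsd11b1, hsd17b2, hsd17b4, hsd17b6, hsd17b10, hsd17b11, hsd17b12 and hsd17b13. All 8 were found in every library. The series holds 10 libraries made with the 10x Chromium 3′ kit from hepatocytes of C57BL/6 male mice, 3 months old, on regular chow without restriction. The only treatment labelled is ketamine and xylazine anaesthesia, and hepatocytes were freed by collagenase perfusion and enriched on a Percoll gradient. Libraries were taken at Zeitgeber time (ZT) 0 (A, B and C), ZT6 (A and B), ZT12 (A, B and C) and ZT18 (A and B), where ZT counts hours of the light-dark cycle. How many mice contributed to a library is not labelled, so p-values measure only the spread between these libraries, which may be technical.

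Hydroxysteroid dehydrogenases move hydrogen between a hydroxyl and a keto group, and several have substrates other than steroids. The product of Hsd11b1 lies in the endoplasmic reticulum and regenerates active glucocorticoid from its inert keto form, with NADPH supplied by the H6pd enzyme. The Hsd17b2 enzyme oxidises oestradiol and testosterone to weaker ketosteroids, and the Hsd17b6 enzyme oxidises androgen metabolites. Hsd17b4 encodes the D-bifunctional protein of peroxisomal fatty acid oxidation, Hsd17b12 a ketoacyl-CoA reductase of fatty acid elongation, and Hsd17b10 a mitochondrial enzyme of isoleucine breakdown that is also a subunit of RNase P. Hsd17b11 and Hsd17b13 encode proteins of the lipid droplet surface. Hepatocytes along the lobule, from the portal vein (periportal) to the central vein (pericentral), divide much of this metabolism between them.

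Hsd17b13 and its neighbour Hsd17b11 differed in direction along the lobule, and Hsd17b6 was the other gene of steep slope, so the promoters of these 3 genes are shown. Hsd17b13 (chr5:103955440-103977410) and Hsd17b11 (chr5:103989762-104021919) lie on the same strand of GRCm38, the minus strand, 12351 bases apart. Hsd17b6 lies at chr10:127990936-128007611, also on the minus strand. The sequences are the 250 bases before a RefSeq start (GRCm38.p6), which were on hand for 6 of the 8 genes. They read 5′ to 3′ on the gene's strand, from chr5:103977389-103977638, chr5:104021797-104022046 and chr10:128007612-128007861, and capitals mark motif matches.
Hsd17b13: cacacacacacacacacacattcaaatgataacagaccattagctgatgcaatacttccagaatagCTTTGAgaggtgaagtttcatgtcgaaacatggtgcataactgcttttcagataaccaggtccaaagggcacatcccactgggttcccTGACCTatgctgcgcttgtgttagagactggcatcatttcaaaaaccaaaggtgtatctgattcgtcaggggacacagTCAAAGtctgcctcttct
Hsd17b11: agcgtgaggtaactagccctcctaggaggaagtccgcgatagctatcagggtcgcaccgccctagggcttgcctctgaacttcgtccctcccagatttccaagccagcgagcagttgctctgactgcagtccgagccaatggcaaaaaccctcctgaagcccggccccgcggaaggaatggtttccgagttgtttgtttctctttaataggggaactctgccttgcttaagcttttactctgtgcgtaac
Hsd17b6: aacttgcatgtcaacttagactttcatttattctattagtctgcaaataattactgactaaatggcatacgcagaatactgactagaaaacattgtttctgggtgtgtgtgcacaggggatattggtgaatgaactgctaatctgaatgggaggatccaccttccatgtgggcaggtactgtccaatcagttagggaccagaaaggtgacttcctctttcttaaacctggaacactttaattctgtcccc
The motifs searched on both strands were CTTTGA (a core bound by TCF/LEF factors), AGGTCA (a nuclear receptor half-site), CACGTG (E-box), TTATGNAA (D-box) and CAAAGTCCA (bound by HNF4). The reverse of CTTTGA shares the letters CAAAG with the HNF4 motif. The Hsd17b13 window held 2 matches to CTTTGA and 1 to AGGTCA. The Hsd17b11 window and both windows of Hsd17b6 held no match to any of the 5 motifs. Among the other members, Hsd11b1 held 1 D-box and Hsd17b10 and Hsd17b12 held no match. Over all 32851 windows of the same length, 13.8% held CTTTGA, 14% AGGTCA, 6.02% CACGTG, 3.07% TTATGNAA and 0.384% CAAAGTCCA.

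The tables held 18378 cells, with 1454623 (ZT12A) to 7144803 (ZT12B) unique molecular identifiers (UMIs, counts of tagged molecules) per library. No UMI count profile was shared by cells of different libraries, and shared barcodes could not be counted because cells are numbered and not barcoded. Libraries ZT0C and ZT12C, which share an index digit, stood apart from the other libraries in position, as described beside the results. Hepatocyte markers summed to 45600 to 105000 CPM (UMIs per 1e+06 UMIs) per library, and endothelial, macrophage, lymphocyte and stellate cell markers to at most 14.8, 7.28, 0.59 and 12.2 CPM. Cholangiocyte markers reached 36.6 CPM, at ZT0, and erythroid markers 379 CPM, at ZT18. Clock genes followed the time labels, with 14 of 16 tested called rhythmic.

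All members were well above the filter of 3 CPM and were tested. Levels here are CPM after TMM scaling of libraries, and because a 3′ tag counts a molecule once they were not divided by gene length. Hsd11b1 (chr1:193221634-193264075, minus strand) was the most abundant at 345 ± 100.3 CPM (SD, n = 10 libraries), followed by Hsd17b13 at 269 ± 56.9. Hsd17b11 measured 221 ± 37.8 CPM, Hsd17b4 (chromosome 18, plus strand) 209 ± 30.4, and Hsd17b12 (chr2:94032689-94157964, minus strand) 168 ± 22.3. Below them were Hsd17b6 at 136 ± 66.0 CPM, Hsd17b2 (chr8:117701904-117759027, plus strand) at 89.6 ± 29.8, and Hsd17b10 (chrX:152001845-152004442, plus strand) at 86.5 ± 22.4. Neighbours in this order overlapped over libraries in every case. Hsd11b1 exceeded Hsd17b13 in 9 of 10 libraries, whereas Hsd17b11 exceeded Hsd17b4 in 6 and Hsd17b2 exceeded Hsd17b10 in 4. Hsd11b1 overlaps Lamb3 on the other strand, but Lamb3 measured 1.11 CPM.

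The first question was where along the lobule each gene is expressed. Cells of each library were ordered by 7 periportal and 8 pericentral landmark genes, none of them a member, and the outer parts of 3 equal parts of this order, here the periportal and pericentral zones, were compared with the library as a block. All 8 members differed between the zones in the quasi-likelihood test of edgeR (p-values adjusted by the method of Benjamini and Hochberg), where 24.3% of all 8924 genes tested did. Hsd17b6, Hsd17b13, Hsd11b1 and Hsd17b2 were higher in the periportal zone (11.4% of all genes), and Hsd17b4, Hsd17b10, Hsd17b11 and Hsd17b12 in the pericentral zone (12.9%). The median size of the log2 difference was 0.56 over the members, against 0.18 over all genes and 0.17 over genes of at least 20 CPM. Because the members were chosen with earlier results of these data known, these contrasts with all genes describe the set and do not test it. With library size alone, 28.3% of all calls were periportal against 47% here, and the members kept their directions under each scaling. All 10 libraries differed the same way for 6 members (11.1% of all genes), the exceptions being Hsd17b2 and Hsd17b12.

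Hsd17b6 was low in pericentral and high in periportal cells. In the pericentral zone its lowest, median and highest libraries measured 3.98, 22.7 and 80.4 CPM, and in the periportal zone 143, 224 and 509 CPM. No library's pericentral level reached any periportal one. The log2 difference was 3.18 ± 0.14 (SE), 9.07-fold, and held in 10 of 10 libraries (edgeR adjusted p = 3.13e-19). It ranked 18 among 1014 periportal calls that were not landmarks.

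Hsd17b13 had a slope of similar size at higher levels. Its pericentral levels were 10.7, 66.2 and 98.4 CPM (lowest, median and highest library) and its periportal levels 364, 471 and 625.5 CPM, again without overlap. The log2 difference was 2.96 ± 0.15 (SE), 7.80-fold, in 10 of 10 libraries (edgeR adjusted p = 2.74e-17), rank 23 among the same calls. Only 1.36% of all genes were called with a difference of at least 4-fold. Per library, the difference of Hsd17b6 exceeded that of Hsd17b13 by 0.26 ± 0.39 (log2, SD, n = 10) and was the greater in 8 of 10 libraries. An exact two-sided sign-flip permutation test gave p = 0.0703 for this (0.0703 after adjustment over 2 comparisons). This pair, too, was picked with the zone differences known.

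**Figure D1:**
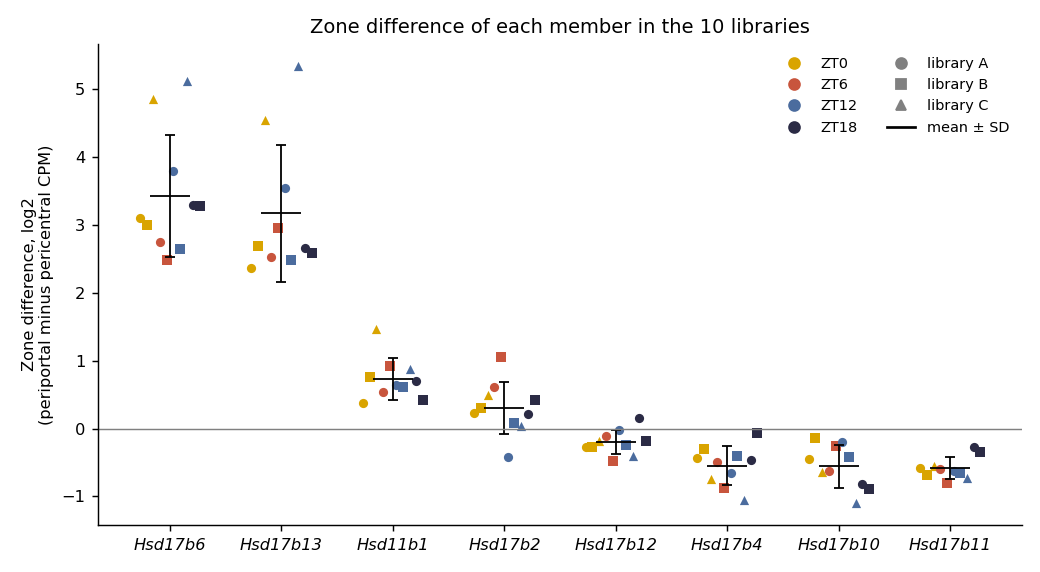
Zone difference (log2 of the periportal minus the pericentral CPM) of each of the 8 members, with 1 point per library, coloured by time and shaped by library letter, and the mean ± SD over the 10 libraries. Hsd17b6 and Hsd17b13 lie above 2.3 in every library and highest in ZT0C and ZT12C, and the 4 genes on the right lie mostly below 0.

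Both steep slopes were largest in 2 libraries, ZT0C and ZT12C, which share an index digit. In ZT0C and ZT12C the differences of Hsd17b6 were 4.85 and 5.11 (log2) and those of Hsd17b13 were 4.55 and 5.34, against at most 3.79 and 3.54 in the other 8 libraries. In these libraries the 2 scores made from alternate landmarks correlated across cells with r = 0.826 and 0.811, against 0.672 to 0.754 elsewhere. Among the other 8, ZT12B had the highest such r (0.754) and differences of only 2.65 and 2.48. The pericentral zones of ZT0C and ZT12C held few UMIs of the genes, 9 and 5 for Hsd17b6 and 43 and 8 for Hsd17b13. Without ZT0C and ZT12C the log2 differences were 2.95 and 2.67, and all 8 members were still called. The part of the order's resolution or of the index in these values was not tested.

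Hsd17b11, the neighbour and close relative of Hsd17b13, went the other way. It measured 191, 277 and 331 CPM (lowest, median and highest library) in the pericentral zone and 127, 176 and 227 CPM in the periportal zone. The log2 difference was -0.58 ± 0.07 (SE; edgeR adjusted p = 7.18e-09), and the pericentral level was the higher in 10 of 10 libraries. Per library, the zone difference of Hsd17b13 exceeded that of Hsd17b11 by 3.75 ± 1.07 (log2, SD, n = 10), in 10 of 10 libraries. The exact two-sided sign-flip permutation test gave p = 0.00195, the smallest it can give, and 0.0039 after adjustment over 2 comparisons. This pair was picked with these same zone differences known, so the p-value is no independent support. In these libraries the 2 neighbouring genes went in opposite directions. How reads that match both were counted is not given in the sources used here.

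The steroid-converting pair Hsd11b1 and Hsd17b2 had shallower periportal slopes. Hsd11b1 measured 159, 223 and 409 CPM in the pericentral zone (lowest, median and highest library) and 289, 398 and 545 CPM in the periportal zone. These ranges overlapped, but within each library the periportal level was the higher. The log2 difference was 0.72 ± 0.08 (SE), 1.65-fold (edgeR adjusted p = 5e-09). Hsd17b2 measured 40.8, 75.1 and 102 CPM in the pericentral zone and 30.1, 110.3 and 156 CPM in the periportal zone. Its log2 difference was 0.37 ± 0.09 (SE), 1.30-fold, in 9 of 10 libraries (edgeR adjusted p = 0.000982). The exception was ZT12A (-0.42), the shallowest library. In ZT12B and ZT12C the difference was also near 0 (0.08 and 0.04). Libraries of the other times lay between 0.22 (ZT18A) and 1.05 (ZT6B).

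The remaining pericentral genes were Hsd17b4, Hsd17b10 and Hsd17b12. Hsd17b4 measured 178, 264 and 305 CPM in the pericentral zone (lowest, median and highest library) and 126, 176 and 229 CPM in the periportal zone, and its log2 zone difference was -0.53 ± 0.08 (SE; edgeR adjusted p = 8.52e-07). Hsd17b10 measured 71.6, 107 and 158 CPM against 49.0, 68.4 and 115 CPM, with a log2 zone difference of -0.55 ± 0.08 (SE; edgeR adjusted p = 3.1e-06). Both were higher in the pericentral zone in 10 of 10 libraries. Hsd17b12 measured 139, 185 and 220 CPM against 145, 154 and 191 CPM, and its log2 difference of -0.21 ± 0.07 (SE; edgeR adjusted p = 0.0184) was the smallest of the 8. It held in 9 of 10 libraries and was lost without the 5% of cells with the most UMIs (log2 difference -0.18, edgeR adjusted p = 0.0584).

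Mitochondrially encoded genes took 11.9% to 23.2% of UMIs in the pericentral and 14.0% to 25.2% in the periportal zones, and without these genes 8 members were called. The 5 cholangiocyte markers present, of 6 listed, summed to 0 to 15.6 CPM in the pericentral and 1.15 to 51.4 CPM in the periportal zones. Their part in the member values was not tested. The order passed its check, since 6 of 6 further periportal and 6 of 6 further pericentral genes were called in their known direction.

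Divided into 8 layers, from layer 1 (pericentral) to layer 8 (periportal), the order showed shapes that the zones hide. Hsd17b6 rose from 20.5 ± 17.2 CPM in layer 1 through 89.6 ± 58.0 in layer 4 to 301 ± 121 in layer 8 (SD, n = 10), 14.6-fold between means. Hsd17b13 rose from 30.8 ± 16.0 CPM through 214 ± 102 to 525 ± 85.0, 17.0-fold. For both genes the highest layer was layer 7 or 8 in 10 of 10 libraries. Hsd17b13 thus had 40.8% of its layer 8 level in layer 4, and Hsd17b6 29.8%.

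Hsd11b1 levelled off toward the portal side. It measured 206 ± 81.3 CPM in layer 1, 423 ± 107 in layer 6 and 400.4 ± 118 in layer 8, and 7 of 10 libraries had their highest layer among layers 3 to 6. By time, its mean was highest in layer 8 at ZT0, layer 7 at ZT12 and layer 6 at ZT6 and ZT18. Hsd17b4 was highest in layer 1 at 295 ± 53.2 CPM, lowest in layer 7 at 162 ± 32.9, and measured 185 ± 41.8 in layer 8. Hsd17b11 fell from 285 ± 58.4 to 174 ± 32.4 CPM between layers 1 and 7, and for both genes the highest layer was 1 or 2 in 10 of 10 libraries. Between layer means Hsd17b4 spanned 1.82-fold and Hsd17b11 1.64-fold. The profiles of Hsd17b10 (116 ± 36.9 to 68.6 ± 24.6 CPM), Hsd17b12 (185 ± 22.5 to 150 ± 29.5) and Hsd17b2 (77.8 ± 20.6 to 103 ± 39.7) spanned 1.69-fold, 1.23-fold and 1.32-fold. These are descriptions of means, and differences between layers were not tested.

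**Figure D2:**
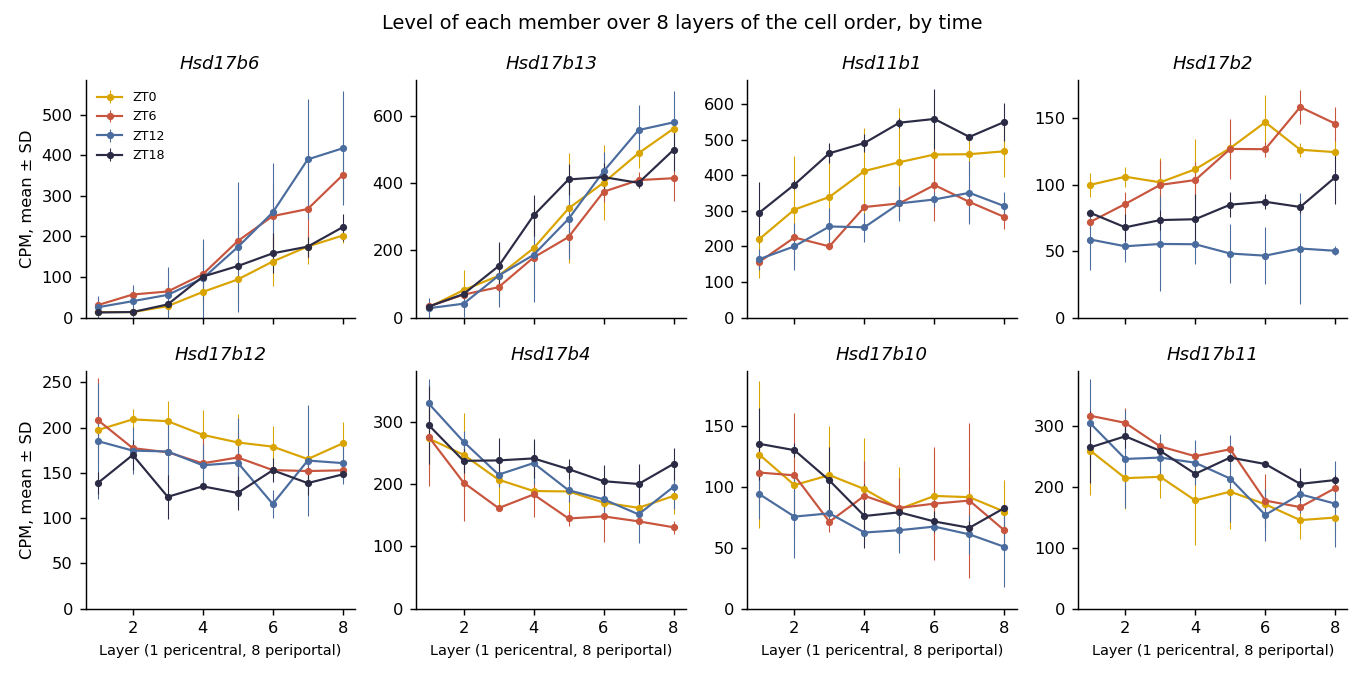
Level of each member (CPM, mean ± SD over the 2 or 3 libraries of a time) over 8 layers of the cell order from pericentral (1) to periportal (8), with 1 line per time. Hsd17b6 and Hsd17b13 climb toward layer 8 at all 4 times. Hsd17b4 is highest in layer 1 at each time, and Hsd17b11 in layer 1 or, at ZT18, layer 2.

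The next question was whether the genes change over the day in the summed cells of each library. Hsd17b2, which encodes the oestradiol- and testosterone-oxidising enzyme, was the only member called, and it was low at ZT12. Its levels were 111, 120, and 113 CPM in ZT0A, B and C, 114 and 113 CPM at ZT6, 33.6, 53.9 and 72.0 CPM at ZT12 and 75.2 and 90.0 CPM at ZT18. All 3 ZT12 libraries lay below all others, also within each letter, which shares an index digit between ZT0 and ZT12, and both ZT18 libraries lay between them and the rest. With library size alone ZT12C (82.3 CPM) lay above ZT18A (73.6 CPM), so the separation from ZT18 depends on the scaling. The value of ZT12A rests on 50 UMIs. Cholangiocyte markers (5 of 6 present) summed to 17.2 to 36.6 CPM at ZT0, with Krt19 at 0, and to 3.36 to 5.71 CPM at ZT12, with Cldn7 at 0. They summed to 0.789 to 4.82 CPM at ZT6, where Hsd17b2 was near its ZT0 level, and to 12.2 to 17.7 CPM at ZT18. Their part in the change of Hsd17b2 was not tested.

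Between ZT12 and ZT0, Hsd17b2 fell by 1.09 ± 0.23 on the log2 scale (SE), 2.14-fold, with all 3 ZT12 libraries lower (edgeR adjusted p = 0.0164). It was 1 of 8 members called, where 3.44% of all 8908 genes were called and 1.7% were lower, and libraries of ZT12 and ZT0 were apart for 17% of all genes. The 24-h rhythm test called 1 of 8 members too, again Hsd17b2 (5.14% of all genes), with a peak at ZT 1.54, a peak-to-trough fold of 2.26 and edgeR adjusted p = 0.0471. The test of any difference among times gave edgeR adjusted p = 0.0335 (6.58% of all genes called). The rhythm call was lost without any one of the 10 libraries (edgeR adjusted p = 0.0511 to 0.132), and the call at ZT12 without ZT12B (log2 change -1.11, edgeR adjusted p = 0.0538). With library size alone, which moves the median of all genes by 0.135 on the log2 scale in this comparison, the change was -0.94 (edgeR adjusted p = 0.0571). That scaling placed 66.7% of all calls higher at ZT12, where TMM placed 50.7%.

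Hsd17b6 was higher at ZT12 than at ZT0 within each letter, a pattern whose share among all genes was not computed. It measured 103, 110 and 49.8 CPM in ZT0A, B and C, 193 and 130 CPM at ZT6, 175, 285 and 102 CPM at ZT12 and 98.1 and 119 CPM at ZT18. Library C was the lowest of its time at ZT0 and ZT12, so that the ranges of the times overlapped. The log2 change from ZT0 to ZT12 was 1.11 ± 0.36 (SE), 2.15-fold, which did not pass the test (edgeR adjusted p = 0.121). With the letters as a block, which pairs these times, it was 1.08 and passed (edgeR adjusted p = 0.00883), among 5.66% of all genes. The amplitude of its rhythm, the log2 distance from mean to peak, was 0.62, peaking at ZT 10.17 (edgeR adjusted p = 0.132). The rhythm of Hsd17b6 was called with the letter as a block (edgeR adjusted p = 0.0172) and with the index digit as a block (edgeR adjusted p = 0.00802, peak at ZT 12.97). Both ZT18 libraries carry an index digit of their own, so the rhythm in the index fit rests on ZT0, ZT6 and ZT12. Libraries of a letter were less alike between other times than between ZT0 and ZT12, which limits the letter block.

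Hsd11b1 was highest at ZT18. It measured 490.2, 335 and 293 CPM in ZT0A, B and C, 257 and 281 CPM at ZT6, 339, 277 and 225 CPM at ZT12 and 465 and 491 CPM at ZT18. Both ZT18 libraries lay above both ZT6 libraries, but ZT0A reached the same height. The log2 difference between ZT18 and ZT6 was 0.83 ± 0.29 (SE), 1.78-fold, and did not pass (edgeR adjusted p = 0.126), and neither did the rhythm, which peaked at ZT 19.75 (edgeR adjusted p = 0.13). The rhythm of Hsd11b1 was called by DESeq2 (adjusted p = 0.0435) and by edgeR with the letter as a block (adjusted p = 0.044). That block also pairs ZT6 and ZT18 by letter, where libraries of a letter were less alike than between ZT0 and ZT12.

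In the comparison of ZT18 with ZT6, edgeR called 0 of 8 members (3.79% of all genes), DESeq2 called 0, and 1 had an unadjusted p under 0.05. The libraries of these times were apart for 6 members, but with 2 libraries a time this held for 63.1% of all genes. Both ZT18 libraries carry an index digit of their own, so ZT18 and this index cannot be told apart. The other 5 members, Hsd17b4, Hsd17b10, Hsd17b11, Hsd17b12 and Hsd17b13, had rhythm amplitudes of 0.12 to 0.23 (log2) and edgeR adjusted p of 0.437 to 0.801. Hsd17b13 ranged from 178 (ZT0C) to 342 CPM (ZT12B) and was lowest in library C at both ZT0 and ZT12. Hsd17b12 ranged from 136 to 208 CPM, Hsd17b11 from 149 to 257, Hsd17b4 from 152 to 243 and Hsd17b10 from 64.6 to 133.

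**Figure D3:**
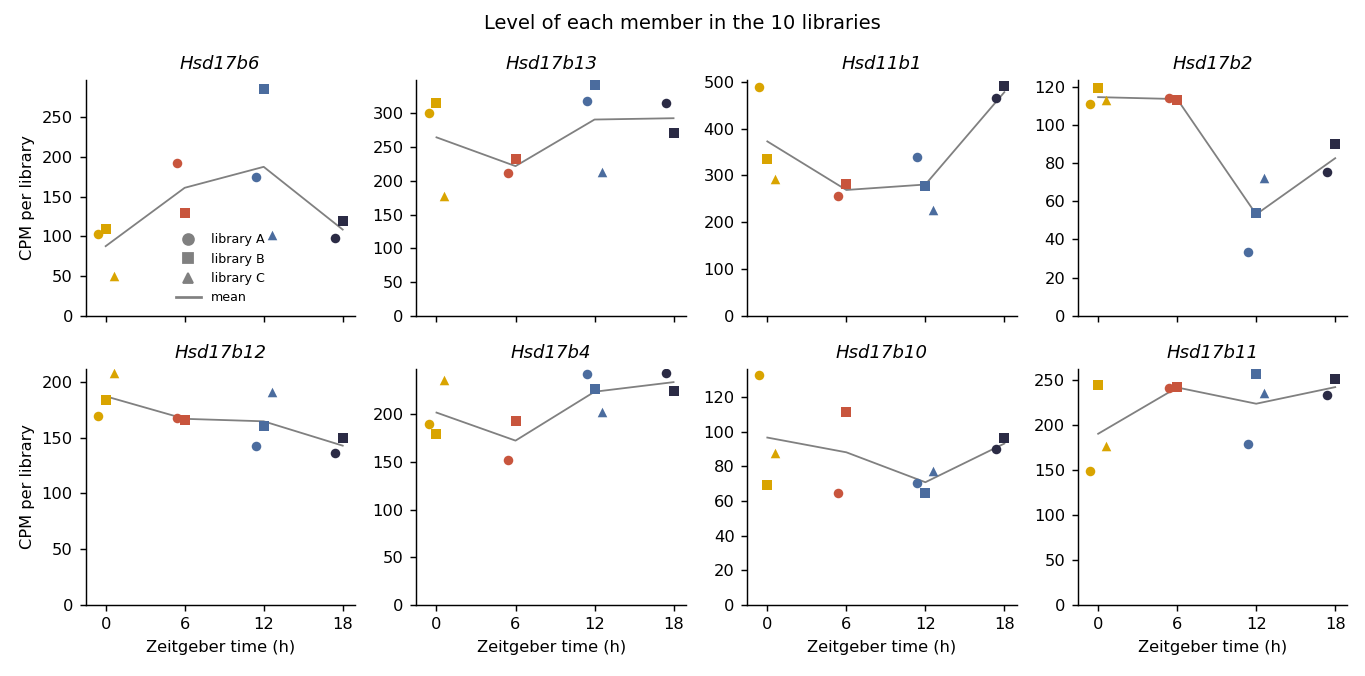
Level of each member (CPM) in each of the 10 libraries against Zeitgeber time in hours, with points shaped by library letter and a line through the means. Hsd17b2 is lowest in the 3 libraries of ZT12, Hsd17b6 is low in library C of ZT0 and ZT12, and the other genes overlap between ZT0 and ZT12.

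Position and time were then combined, by choices made after the data were seen. In the periportal zone Hsd17b6 measured 182, 201 and 143 CPM in ZT0A, B and C and 379, 509 and 265 CPM in ZT12A, B and C, without overlap. In the pericentral zone it measured 20.3, 24.3 and 3.98 CPM at ZT0 and 26.5, 80.4 and 6.67 CPM at ZT12. These ranges overlapped, but each letter was again higher at ZT12. The shares of all genes with such patterns within a zone were not computed. In summed cells the libraries of ZT12 and ZT0 were apart for 17% of all genes. A test of ZT12 against ZT0, made without the letters as a block, on the UMIs of the periportal zone alone gave a log2 change of 1.14 for Hsd17b6 (edgeR adjusted p = 0.0179) and of -1.24 for Hsd17b2 (edgeR adjusted p = 0.00765). These were 2 of 8 members, where 2.78% of all genes were called. In the pericentral zone alone 0 of 8 were called by edgeR (1.71% of all genes) and 2 had an unadjusted p under 0.05, with log2 changes of 1.43 for Hsd17b6 (edgeR adjusted p = 0.341) and -0.84 for Hsd17b2 (edgeR adjusted p = 0.0921). The rhythm test called 2 of 8 members in the periportal zone alone, Hsd17b2 (edgeR adjusted p = 0.0387) and Hsd17b6 (edgeR adjusted p = 0.0248), where 4.49% of all genes were called. In the pericentral zone alone it called 0 of 8 (2.77% of all genes), and 3 had an unadjusted p under 0.05.

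Whether timing differs between zones needs the difference itself. The test of zone by rhythm called 0 of 8 members by edgeR (0.0112% of all genes) and 0 by DESeq2, and 0 had an unadjusted p under 0.05. The lowest edgeR adjusted p was 0.842, for Hsd17b2, whose zone difference had an amplitude of 0.28 (log2). Hsd17b2 measured 127 ± 9.84 CPM in the periportal zone at ZT0 and 52.6 ± 21.4 at ZT12, and 99.7 ± 2.34 and 54.5 ± 15.2 CPM in the pericentral zone (SD, n = 3). At ZT12 the levels of the zones were thus close to each other. For Hsd17b13 the amplitude of the zone difference was 0.07 (log2; edgeR adjusted p = 0.995), and its mean zone differences at ZT0, ZT6, ZT12 and ZT18 were 3.20, 2.74, 3.79 and 2.62. The libraries of these times overlapped.

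**Figure D4:**
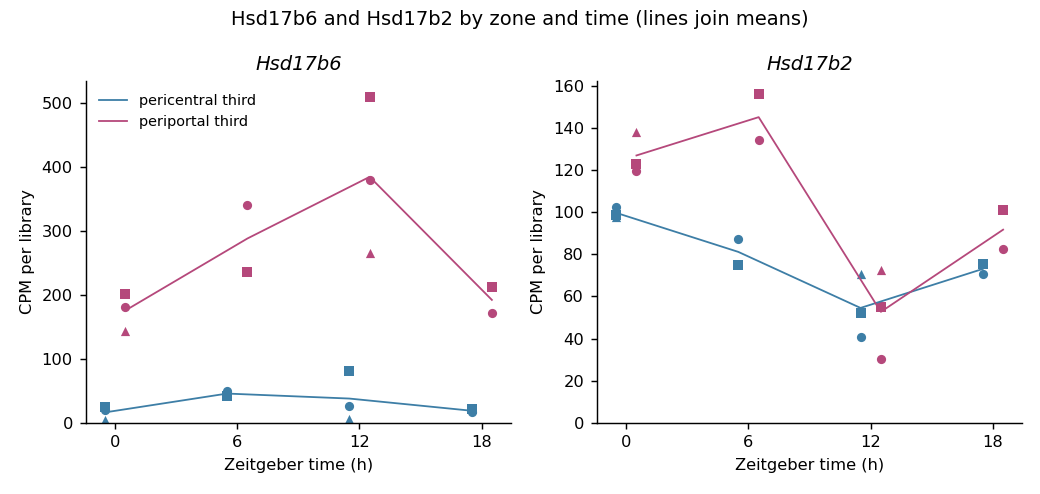
Level (CPM) of Hsd17b6 and Hsd17b2 in the pericentral and periportal zones of each library against Zeitgeber time in hours, with points shaped by library letter as above and lines through the means. Periportal Hsd17b6 lies between 143 and 201 CPM at ZT0 and between 265 and 509 at ZT12, and Hsd17b2 is lowest at ZT12 in both zones.

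The genes that work beside each member were compared in the same tests, by lists of related function. The lists were chosen with earlier results of these data known, so their shares are descriptions. The counts in each list stand beside 24.3% of all genes called between zones, 11.4% periportal and 12.9% pericentral. Among other hydroxysteroid dehydrogenases, 5 of 9 tested differed between zones and all 5 were pericentral, with a list median of -0.38 (log2) against -0.01 over all genes. Akr1c6 (-1.14) and Hsd3b5 (-0.90) differed most, followed by Akr1c14 (-0.53), Hsdl2 (-0.52) and Hsd17b7 (-0.38). Hsd3b5 and the abundant Hsd3b3 (146 CPM, log2 zone difference 0.10, edgeR adjusted p = 0.312) belong to a family of near copies, so their counts are uncertain. Only H2-Ke6, the gene of the mitochondrial Hsd17b8 enzyme, was rhythmic in this list, peaking at ZT 5.26 (edgeR adjusted p = 0.0389).

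For Hsd11b1 the partner genes were of interest. H6pd, which makes NADPH inside the endoplasmic reticulum, measured 163 CPM and had a log2 zone difference of -0.02 (edgeR adjusted p = 0.853). Slc37a4, the carrier that brings glucose-6-phosphate to H6pd, was periportal (0.50, edgeR adjusted p = 3.92e-06) and rhythmic, peaking at ZT 14.06 (edgeR adjusted p = 0.0168). Nr3c1, the glucocorticoid receptor gene, did not pass (0.18, edgeR adjusted p = 0.0687). Serpina6, which encodes the corticosteroid-binding globulin, was pericentral (-0.79, edgeR adjusted p = 2.76e-08).

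In the whole list of steroid reduction, conjugation and cofactor supply, 11 of 16 tested differed between zones, 4 periportal and 7 pericentral, with a median of -0.21 (log2). Besides Slc37a4 the periportal genes were the oestrogen receptor gene Esr1 (1.23), the sulfotransferase gene Sult1a1 (0.54) and the steroid reductase gene Srd5a1 (0.33). Besides Serpina6 the pericentral genes included Ugt2b1 (-0.94), Sult2a8 (-0.90), Ugt2b34 (-0.64), the bile acid enzyme gene Akr1d1 (-0.44) and Ugt2b36 (-0.34). The Ugt2b and Sult genes have close relatives whose reads may be shared.

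The peroxisomal list was one-sided. Of 20 genes of peroxisomal beta oxidation, 12 differed and all were pericentral, with a median of -0.37 (log2), where 12.9% of all genes were called pericentral. Hsd17b4 was pericentral too. Acaa1b (-1.49), the peroxisome proliferation gene Pex11a (-1.15) and Eci2 (-0.89) were among them. Ehhadh, which encodes the L-bifunctional counterpart of Hsd17b4, had a log2 difference of -0.49 (edgeR adjusted p = 1.93e-06), close to the -0.53 of Hsd17b4. Ehhadh was also rhythmic (peak ZT 19.57, edgeR adjusted p = 0.0274), and for Hsd17b4 the same test gave edgeR adjusted p = 0.437. The difference between these 2 rhythms was not tested.

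Of the fatty acid elongation genes that work with Hsd17b12, 8 of 12 differed, 5 periportal and 3 pericentral, with a median of 0.09 (log2). Acaca (0.89), Elovl2 (0.71) and Fads1 (0.43) were periportal and Elovl3 (-2.12) was pericentral. Of the steps that act within the same cycle as Hsd17b12, Hacd3 was pericentral (-0.23, edgeR adjusted p = 0.0187) and Tecr did not pass (0.15, edgeR adjusted p = 0.184). Elovl3 was also strongly rhythmic, with an amplitude of 1.94 (log2; edgeR adjusted p = 0.000368).

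Of 12 genes of mitochondrial RNase P and isoleucine breakdown, 3 differed, a share near that of all genes (24.3%). These were Acat1 (-0.54), Hadh (-0.38) and Dbt (-0.23), all pericentral. Trmt10c, the partner subunit in RNase P, did not pass (-0.20, edgeR adjusted p = 0.426). The lowest edgeR adjusted p for a rhythm among the 12 was 0.0588, for Bcat2.

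Of 15 lipid droplet genes tested, 7 differed, with Fitm1 (-3.57), Hilpda (-1.21, at 4.20 CPM), Fitm2 (-0.64), G0s2 (-0.29) and Cideb (-0.20) pericentral and Pnpla3 (1.52, at 3.84 CPM) and Ldah (0.28) periportal. Plin2, the main droplet coat gene of hepatocytes, had a log2 zone difference of 0.08 (edgeR adjusted p = 0.539) and was rhythmic, peaking at ZT 1.41 (edgeR adjusted p = 0.0233). Among retinol and short-chain dehydrogenases 5 of 14 differed, with Rdh16 (-1.76), Dhrs1 (-0.83), Rdh10 (-0.41) and Sdr42e1 (-0.35) pericentral and Rdh5 (0.93) periportal. The abundant Rdh7 (905 CPM) did not pass (-0.09, edgeR adjusted p = 0.305).

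The rhythm test, which called 5.14% of all genes, called 2 of 12 elongation genes, Elovl3 and Elovl6 (peak ZT 14.95), and 2 of 20 peroxisomal genes, Ehhadh and Eci2 (peak ZT 9.90). Of the lipid droplet genes 3 of 15 were called: Plin2, the lipase inhibitor gene G0s2 (amplitude 1.23, peak ZT 23.97) and the lipase activator gene Abhd5 (peak ZT 21.35). Of the retinol and short-chain dehydrogenases 2 of 14 were called, Dhrs3 (peak ZT 23.84) and Rdh11 (peak ZT 22.46), and of the steroid list 2 of 16, Slc37a4 and Srd5a3 (at 6.81 CPM).

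**Figure D5:**
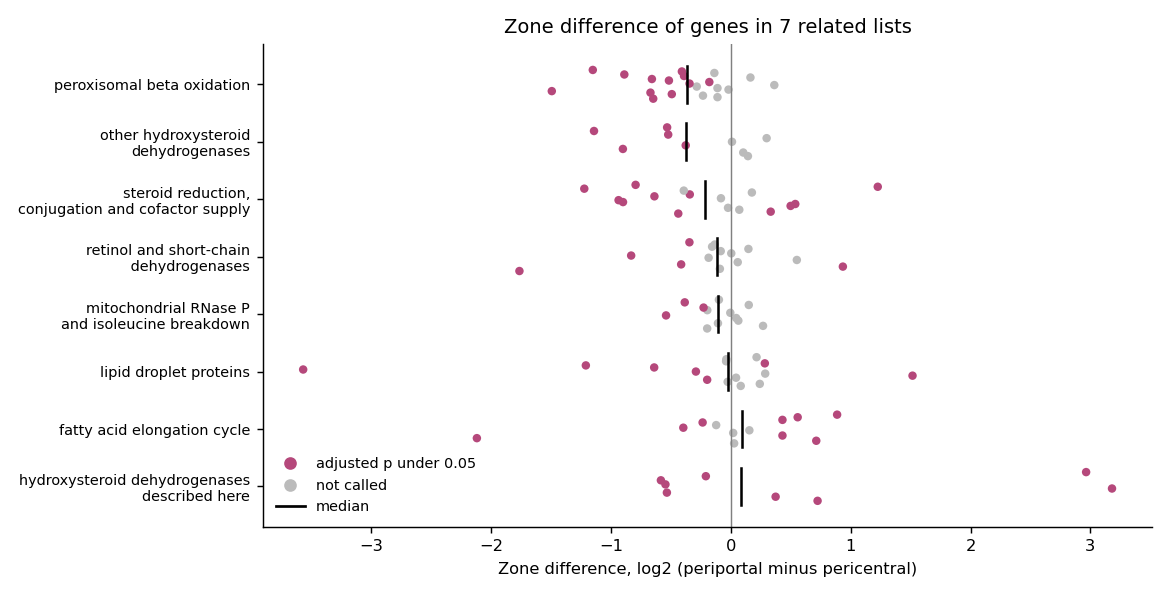
Zone difference (log2 of periportal minus pericentral) of the tested genes in 7 lists of related function and of the 8 members, with 1 point per gene, coloured where edgeR's adjusted p was under 0.05, and a bar at the list's median. The medians of the peroxisomal list (-0.37) and of the other hydroxysteroid dehydrogenases (-0.38) lie left of 0, and Hsd17b6 and Hsd17b13 lie at 3.18 and 2.96 on the right.

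Genes with the most similar pattern were sought over the 32 means of layer and time, among 4320 genes of at least 20 CPM. These correlations are descriptions, since points share libraries and the landmark order. Hsd17b13 was most like Fbp1 (r = 0.969), a gene of gluconeogenesis, Etnppl (0.968) and the glutaminase gene Gls2 (0.967). Hsd17b6 was most like Ctnnbip1 (0.947), an inhibitor of beta-catenin, the serine dehydratase gene Sds (0.939) and Etnppl (0.920). Hsd11b1 was most like Azgp1 (0.938), Cxcl12 (0.927) and Slc25a3 (0.924), and Hsd17b2 was most like Apoe (0.927) and the bile salt exporter gene Abcb11 (0.911). Hsd17b4 was most like Slc16a10 (0.901) and the glucuronosyltransferase gene Ugt2b34 (0.890), whereas the nearest genes reached r = 0.852 for Hsd17b10 (Tlcd2), 0.829 for Hsd17b11 (Plpp3) and 0.776 for Hsd17b12 (Sec61g). Among the members themselves Hsd17b6 and Hsd17b13 were the most alike (r = 0.905), and Hsd17b4 and Hsd17b6 the most opposed (r = -0.759). Between the neighbours Hsd17b11 and Hsd17b13 r was -0.721.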

How the data were processed

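UMI counts per gene and cell were deposited by the authors as 1 table per library. The submitters' processing notes name Cell Ranger and the builds mm10 and hg19, without roles. The annotation, the cell filter and the treatment of doublets are not given in the sources used here, and whether reads were counted by strand is not given either. Values were whole numbers, so they were read as raw counts. Of 14812 gene entries 14321 matched a GENCODE M21 symbol, and 534 were empty throughout. Cells held at least 1048 UMIs, all were kept, and doublets were not called. Coordinates are from GENCODE M21 (GRCm38).

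The members and all gene lists were chosen with earlier results of these data known. Named genes were the 8 members and, per list, test and direction, at most 2 called genes of at least 20 CPM with the largest difference or amplitude. Other list genes, such as partners of a member, the rest of a short list of calls and genes under 20 CPM, were named after their values were seen. For likeness they were the 3 genes with the highest Pearson r.

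UMIs were summed per library, and per library and zone, and tested with edgeR 4.0.16 (R 4.3.3) by glmQLFit and glmQLFTest after TMM scaling, for genes averaging 3 CPM or more. The threshold was an adjusted p of 0.05 over all genes tested. The tests were a 24-h cosine and sine with 2 degrees of freedom, any difference among times with 3, ZT12 against ZT0, ZT18 against ZT6, zone with the library as a block, and zone by rhythm. Zones came from the mean z-score of 7 periportal (Cyp2f2, Ass1, Asl, Hal, Ctsc, Pigr, Ftcd) minus 8 pericentral landmarks (Cyp2e1, Oat, Gulo, Mgst1, Aldh1a1, Lect2, Cyp1a2, Rgn) within a library. A single zone difference is on the log2 scale of CPM plus 1, which understates the change of low genes. Sign-flip tests were exact, and their pairs of genes were picked with the zone differences known.

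Title letters were checked for pairing. Deviations from group means correlated with r = 0.284 (A), 0.512 (B) and 0.626 (C) between ZT0 and ZT12, where letters also share an index digit, so the letters pair these times. Between other times, libraries of the same letter gave r from -0.117 (ZT0A and ZT6A) to 0.204 (ZT12A and ZT18A). Among these pairs only ZT6B shares an index digit, with ZT0B (r = -0.052) and ZT12B (0.061).

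Alternatives were library size alone, DESeq2 1.42.0, other filters, other cells or landmarks, blocks, and leaving out libraries. On simulated counts of 8908 genes with 200 changed, ZT12 against ZT0 recovered 39% of genes changed by 1 (log2) and 0.5% of those changed by 0.5. ZT18 against ZT6 recovered 10.5% and 0%, so a member not called there may still differ. Changed genes were drawn at random from all genes tested, so recovery at the levels of the members was not measured. The zone test, on 8924 genes, recovered 93.5% and 57%.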

Additional observations from a re-analysis of the deposited data

Results flagged for a closer look

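The zone difference of Hsd11b1 in ZT0C was 1.46 (log2, periportal minus pericentral), apart from the other 9 libraries, which lay between 0.371 and 0.921. Hsd17b12 measured 191 CPM in the periportal zone of ZT0C, above the range of the other 9 libraries. Both were singled out because 1 library lay farther from its nearest neighbour than Dixon's 95% limit allows for 10 values. Chance alone gives about 1 such flag in 20 groups.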

How the results depend on the processing

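Calls between times were sensitive to the processing and calls between zones mostly were not. The number of members called rhythmic, 1, was 0 with library size alone, without the top 5% of cells by UMIs, in the pericentral zone alone and without any one library. It was 2 with DESeq2, the block on the index digit and the periportal zone alone, and 3 with the replicate block on letters. For any difference among times the number, 1, was 0 with library size alone and without the 5% of cells with the most UMIs, 2 with no filter and under both blocks, and 0 to 1 without 1 library. For ZT12 against ZT0 the number, 1, was 0 with library size alone and in the pericentral zone alone, 2 with DESeq2, no filter, either block and the periportal zone alone, and 0 to 2 without 1 library. Over all genes the test of any difference called 586, and 1071 with no filter, 989 with letters and 465 with the index block. Outside the rhythm test, the index block was fitted without both ZT18 libraries. Its test of any difference thus covered only ZT0, ZT6 and ZT12. ZT12 against ZT0 called 306, and 366 with DESeq2, 469 with no filter and 504 with letters. It called 605 with the index block and 247 in the periportal zone alone. For ZT18 against ZT6 the replicate block called 1 (Hsd11b1, edgeR adjusted p = 0.0393) against 0. Over all genes that block called 730 against 338, and deviations of same-letter libraries of these times correlated with r = 0.112. For zones the number was 8 under every alternative but the fit with no replicate block, where it was 5, with Hsd17b2, Hsd17b10 and Hsd17b12 lost, and the fit without the 5% of cells with the most UMIs, where Hsd17b12 was lost. Under the replicate block between ZT12 and ZT0 Hsd17b6 was gained and no other member's call changed. The zone-alone fits were chosen after the data were seen.

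Only members whose main value was near 0 reversed. Between ZT12 and ZT0, Hsd17b13 (log2 change 0.139) was -0.082 to 0.308 without 1 library, below 0 without ZT0C or ZT12B (-0.014), and -0.149 in the pericentral zone alone. Between ZT18 and ZT6, Hsd17b11 (0.002) was -0.075 with library size alone, -0.001 without the 5% of cells with the most UMIs, -0.006 with the replicate block, -0.052 (without ZT18B) to 0.058 without 1 library and -0.098 in the pericentral zone alone, and Hsd17b10 (0.09) was -0.262 (without ZT6A) to 0.527 without 1 library and -0.043 in the periportal zone alone. The phase of the zone difference of Hsd17b13 moved by more than 6 h with even-numbered landmarks (amplitude 0.018) and without ZT0A, ZT12C or ZT18B, where the amplitudes without 1 library were 0.046 to 0.298. The cause of these changes was not tested. Where 1 library of a time was left, it is assumed to vary like the others. No index block could be fitted for ZT18 against ZT6. ZT12A held 50 UMIs of Hsd17b2 and ZT12C 5 of Hsd17b6 in its pericentral zone, which limits these values.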
